A study of Mus musculus with 12 samples.

Results

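Bulk RNA-Seq counts of 58 named cell cycle and DNA replication genes were examined in mouse spleen T cells, WT or deficient in PERK, after allogeneic or polyclonal stimulation. The genes were listed by name and function, with earlier results of these data known: 31 act in S phase (origin licensing, replication, nucleotide supply and G1/S control), 25 act in G2 and mitosis, and 2 encode inhibitors of cyclin-dependent kinases (CDKs). The deposited table prints exon positions of one mouse assembly while the labels name another, so each row was laid by its printed positions on GRCm38 exons, and rows over exons of exactly 1 gene were summed by gene (placed counts). Of the 58 genes, 20 had 10 or more placed counts over all libraries, among 5904 genes of the whole table that did: 12 of 31 S phase genes, 7 of 25 G2/M genes and 1 of 2 CDK inhibitors. Of the other 38, 17 had counts only in rows that several genes share, and 21 had no countable row of their own, so nothing is reported on their level. The first set includes Mcm4, Mcm6, Mcm7, Ccna2, Ccnb1, Ccnb2, Cdc20, Aurkb and Cdkn1b, and the second includes Pcna, Cdk1, Mki67, Top2a and Plk1. All 20 genes that could be read passed the low-count filter in all 5 comparisons.

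PERK, encoded by Eif2ak3, is an endoplasmic reticulum stress sensor that phosphorylates the translation factor eIF2 alpha. The PERK-cKO mice (labelled PERK-KO) carry floxed PERK alleles on a B6 background with Cre driven by the CD4 promoter, which deletes in T cells and leaves other cells of the mouse able to make PERK. Each of the 4 groups had 3 libraries: WT allogeneic, PERK-cKO allogeneic, WT polyclonal and PERK-cKO polyclonal. Polyclonal stimulation was by antibodies to CD3 and CD28 and allogeneic stimulation by allogeneic antigen-presenting cells (APCs). For these the deposited design text gives 3 days and 4 days, while the article's legend for the RNA-Seq gives 4 days for both. For other assays of such cells the article's supplement gives 3 days and 4 days.

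Dividing cells copy their DNA once per cycle. In G1, cyclin E with CDK2 and the E2F factors start the expression of replication genes; the MCM helicase is loaded at origins, GINS and MCM10 help to fire it, and the polymerases alpha-primase and epsilon copy DNA from nucleotides that ribonucleotide reductase supplies. In mitosis, kinesins and spindle proteins such as KIF11, TPX2 and NUSAP1 build the spindle, CENP proteins tie it to the chromosomes, and the checkpoint kinase BUBR1 holds anaphase until all are attached. p21, the product of Cdkn1a, binds cyclin-CDK complexes and halts the cycle. Activated T cells are among the fastest dividing cells of the adult body, and levels of these transcripts in bulk RNA rise with the share of cells in cycle, so fewer cycling cells and less transcript per cell cannot be told apart here.

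The reads that were placed covered only part of each gene. The stretches of exon read per gene ran from 89 bp in E2f1 to 2327 bp in Mcm10, in 28 rows, of which 2 are listed under the gene's own symbol. Between 2.0% (Anln) and 49.2% (1 of the rows of Mcm10) of a row's positions lay inside the gene's exons, 4.7% in Nusap1 and 3.5% in the row with most counts of Prim1, and reads at the other positions are part of the count. Cdkn1a was read over 754 bp of its exons on chr17 between positions 29098410 and 29100602 of GRCm38, in a row listed as Pnpla1. That row holds all counts of Cdkn1a, and 15.6% of its positions lie inside the exons. Mcm2 was read over 756 bp on chr6 (88896897 to 88898780), Ccne1 over 1041 bp on chr7 (38098433 to 38099884) and Rrm2 over 468 bp on chr12 (24710357 to 24712765). The 20 genes had between 208 (E2f1) and 50685 (Cdkn1a) counts over all 12 libraries, with a median of 3621. Levels are given as CPM of the placed counts after TMM scaling, per gene and not per length, so levels of different genes are not compared.

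Libraries held 3132702 to 4631908 counts, of which 1551451 to 2300870 were placed. The targeted gene Eif2ak3 was at 108, 99.7 and 92.7 CPM in WT allogeneic and 67.5, 71.4 and 74.8 CPM in PERK-cKO allogeneic libraries (log2 fold change -0.49 ± 0.14 SE, edgeR adjusted p = 0.00769), and at 81.1, 59.6 and 44.8 against 51.8, 46.0 and 47.9 CPM after polyclonal stimulation (-0.36 ± 0.19 SE, edgeR adjusted p = 0.168). The first of these was not called with the libraries scaled to T cell markers (described below) or in the row listed under the gene's own symbol alone (log2 fold change -0.28). Which exons the deletion removes is not given in the sources used here, so whether the stretches read lie inside it is unknown. WT polyclonal replicate 1 stood apart: the ribosomal RNA-like entry Gm42418, picked after its values were seen, took 12.5% of its placed counts and 0.456 to 5.72% elsewhere. Counts of 4 genes of the Y chromosome (Kdm5d, Uty, Ddx3y and Eif2s3y, likewise picked afterwards) were 3335 to 4716 in the WT allogeneic libraries and 0 in each of the other 9 libraries, so the source of the cells and the group cannot be told apart for WT allogeneic. No source says that replicates came from separate mice, so p-values measure the spread between these libraries.

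T cell identity could be checked in 9 of 21 T cell markers. Their summed level was 7098 to 7180 CPM in WT allogeneic, 6141 to 6736 in PERK-cKO allogeneic, 4875 to 5008 in WT polyclonal and 6113 to 6441 in PERK-cKO polyclonal libraries. The 7 basophil and mast cell markers that could be read (of 10) summed to 222 to 229.7 CPM in WT allogeneic, 3287 to 3608 CPM in PERK-cKO allogeneic and 79.5 to 93.2 CPM in polyclonal libraries, and the 5 macrophage and monocyte markers with rows (of 16) to 237 to 272, 1606 to 1823 and 104 to 141 CPM. B cell markers (2 of 12) were at 91.3 to 120.0 CPM in WT allogeneic, 195 to 226 CPM in PERK-cKO allogeneic and 9.60 to 21.9 CPM in polyclonal libraries. Dendritic cell markers (3 of 8) reached 46.2 to 62.4 CPM in PERK-cKO allogeneic libraries and at most 10.1 CPM elsewhere. NK cell markers (1 of 7) and erythroid markers (3 of 8) stayed at or under 4.08 CPM in all 12 libraries. Markers of other cells thus moved with genotype after allogeneic stimulation, and their part in the results below was not tested. Of the 7 T cell markers tested in that comparison 4 fell, led by Cd5 (log2 fold change -0.80 ± 0.10 SE, edgeR adjusted p = 1.08e-06), and 0 rose, beside 14.5% of all 4091 genes tested that fell and 18.6% that rose. The row counted for Cd5 lies inside its exons over 56 of 3119 bp. After polyclonal stimulation 3 of 9 T cell markers rose, led by Cd8b1 (1.63 ± 0.38 SE, edgeR adjusted p = 0.00412). There Cd5 fell (-0.58 ± 0.08 SE, edgeR adjusted p = 5.77e-05), beside 16% of all 3935 genes tested in each direction. Cd8b1 had 193 counts in all, from a row inside its exons over 127 of 4256 bp.

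To show what the genes carry at their start sites, promoter windows from RefSeq (GRCm38.p6, 250 bases before to 50 after the start) were matched by symbol to 17 of the 20 genes, with Gins1, Pole and Tpx2 unmatched. The letters of 3 motifs were searched on both strands: the E2F motif (TTTCGCGC, TTTGGCGC, TTTCCCGC or TTTGCCGC), the cell cycle homology region CHR (TTTGAA or TTCGAA, the second reading alike on both strands) and the CCAAT box. The E2F letters stood in 2 of 11 windows of S phase genes, in 0 of 6 of G2/M genes and in 2.26% of all 32851 windows. The CHR letters stood in 1 of 11 S phase windows, in 4 of 6 G2/M windows and in 19.2% of all. CCAAT was found in 9 of 11 and 4 of 6 windows, and in 37.4% of all. Shown are 2 genes of each phase whose values recur below, each 5′ to 3′ on the gene's strand, with matched letters in capitals: Pola1 (chrX:93632106-93632405, minus strand, E2F and CCAAT), Mcm10 (chr2:5012742-5013041, minus strand, CCAAT in 3 places), Kif11 (chr19:37376132-37376431, plus strand, CCAAT then CHR) and Cenpf (chr1:189688037-189688336, minus strand, CCAAT in 2 places, then CHR).
Pola1: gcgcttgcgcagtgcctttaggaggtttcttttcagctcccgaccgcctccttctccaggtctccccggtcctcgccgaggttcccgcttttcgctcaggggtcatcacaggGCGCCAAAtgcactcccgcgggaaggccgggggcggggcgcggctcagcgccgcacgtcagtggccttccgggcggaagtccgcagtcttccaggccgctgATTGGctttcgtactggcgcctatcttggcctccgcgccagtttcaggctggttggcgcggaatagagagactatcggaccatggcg
Mcm10: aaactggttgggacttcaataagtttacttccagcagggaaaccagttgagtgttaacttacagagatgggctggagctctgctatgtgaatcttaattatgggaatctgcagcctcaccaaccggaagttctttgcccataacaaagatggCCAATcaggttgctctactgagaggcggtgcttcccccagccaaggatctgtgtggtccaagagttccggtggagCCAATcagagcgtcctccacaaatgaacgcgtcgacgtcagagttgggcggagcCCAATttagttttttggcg
Kif11: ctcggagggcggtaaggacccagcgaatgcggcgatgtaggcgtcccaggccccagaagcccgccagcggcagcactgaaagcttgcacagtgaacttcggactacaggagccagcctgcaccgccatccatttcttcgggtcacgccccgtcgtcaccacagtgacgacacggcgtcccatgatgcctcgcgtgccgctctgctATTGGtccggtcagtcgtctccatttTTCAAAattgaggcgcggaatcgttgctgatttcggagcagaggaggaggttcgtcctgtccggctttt
Cenpf: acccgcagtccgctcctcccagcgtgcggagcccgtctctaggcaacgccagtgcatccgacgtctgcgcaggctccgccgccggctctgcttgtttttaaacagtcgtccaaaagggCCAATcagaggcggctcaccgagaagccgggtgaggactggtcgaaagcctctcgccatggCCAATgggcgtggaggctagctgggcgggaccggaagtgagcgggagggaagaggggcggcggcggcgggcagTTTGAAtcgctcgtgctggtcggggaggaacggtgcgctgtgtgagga
Neither window of Cdkn1a and none of the windows matched to Ccne1, E2f1 or Nusap1 held letters of the 3 motifs. A listed start need not be the main start of a gene. The window matched to E2f1 reads as coding sequence of E2f1, so nothing is reported on the promoter upstream of it. That window is counted among the 11 S phase windows. A match is a run of letters, not a measured binding site.

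PERK deficiency after allogeneic stimulation went with lower levels of both phases. Of the 12 S phase genes 11 fell and 0 rose, and of the 7 G2/M genes 6 fell and 0 rose, beside 14.5% of all 4091 genes tested that fell and 18.6% that rose (edgeR quasi-likelihood test, Benjamini-Hochberg adjusted p under 0.05). The median log2 fold change was -0.71 over the S phase genes and -0.75 over the G2/M genes, against -0.02 over all genes tested. The CDK inhibitor Cdkn1a rose. In 9 of the 12 S phase genes and 6 of the 7 G2/M genes, the PERK-cKO libraries all lay under the WT libraries, as they did in 21.2% of all 4091 genes tested.

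**Figure D1:**
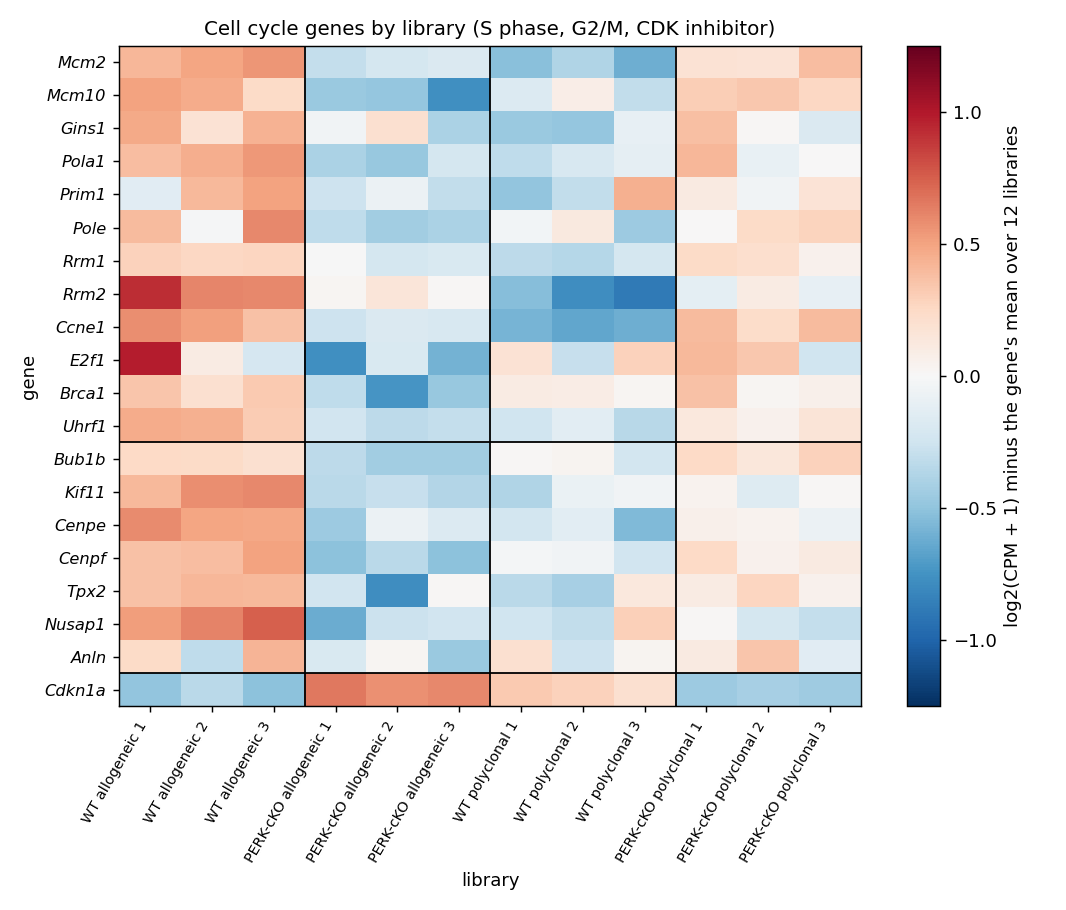
Each cell shows log2(CPM + 1) of a gene (row) in a library (column) minus that gene's mean over 12 libraries, under TMM scaling, with S phase genes on top, G2/M genes below them and Cdkn1a last. The 3 WT allogeneic columns are red in most rows and the 3 PERK-cKO allogeneic columns blue, and Cdkn1a runs the other way in all 4 groups. For most S phase rows the WT polyclonal columns are blue and the PERK-cKO polyclonal columns red. The S phase median is as low in WT polyclonal (-0.32 to -0.27) as in PERK-cKO allogeneic libraries (-0.30 to -0.22), while the G2/M medians of the polyclonal columns are nearer to the mean.

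Among the S phase genes, Mcm10, which helps the loaded helicase to start, was at 259.7, 252 and 217 CPM in WT and at 133, 131 and 108 CPM in PERK-cKO libraries (log2 fold change -0.96 ± 0.12 SE, edgeR adjusted p = 5.16e-07). Pola1, the catalytic subunit of polymerase alpha, was at 132, 138 and 147 CPM in WT and at 76.2, 71.9 and 85.9 CPM in PERK-cKO (-0.83 ± 0.13 SE, edgeR adjusted p = 1.76e-05). Both genes were lower in every PERK-cKO library than in any WT library. Brca1, a homologous recombination repair gene, fell by 0.79 on the log2 scale, Pole, the leading-strand polymerase, by 0.74, the helicase subunit Mcm2 by 0.72 and cyclin E1 (Ccne1) by 0.70. Uhrf1, which brings the maintenance methyltransferase to newly copied DNA, fell by 0.69, and the small and large subunits of ribonucleotide reductase, Rrm2 and Rrm1, by 0.66 and 0.40. The smallest changes beside Rrm1 were those of the primase subunit Prim1 (-0.50 ± 0.15 SE, edgeR adjusted p = 0.0115) and the GINS subunit Gins1 (-0.42 ± 0.14 SE, edgeR adjusted p = 0.0216). E2f1, a factor that drives S phase genes, was at 18.5, 9.55 and 7.50 CPM in WT and 4.79, 7.65 and 5.56 CPM in PERK-cKO libraries and was not called (-0.96 ± 0.42 SE, edgeR adjusted p = 0.0886).

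Of the G2/M genes, Nusap1, which bundles spindle microtubules, was at 264, 282 and 307 CPM in WT and at 119, 152 and 155 CPM in PERK-cKO libraries (log2 fold change -1.01 ± 0.12 SE, edgeR adjusted p = 2.3e-07). Cenpf, a kinetochore protein, was at 167, 169.5 and 185 CPM in WT and at 90.6, 103 and 90.9 CPM in PERK-cKO (-0.88 ± 0.12 SE, edgeR adjusted p = 2.96e-06). Kif11, the kinesin that pushes spindle poles apart, was at 579, 655 and 664 CPM in WT and at 345, 357 and 338 CPM in PERK-cKO (-0.87 ± 0.09 SE, edgeR adjusted p = 5.69e-08). None of the 3 overlapped between the genotypes. The kinetochore motor Cenpe fell by 0.75, Tpx2, which activates Aurora A on the spindle, by 0.71, and Bub1b, which encodes BUBR1, by 0.62. Anln, the cytokinesis protein anillin, ranged from 17.9 to 30.6 CPM in WT and from 16.1 to 23.0 CPM in PERK-cKO libraries and was not called (-0.35 ± 0.26 SE, edgeR adjusted p = 0.339).

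Cdkn1a was at 1505, 1671 and 1477 CPM in WT and at 3341, 3131 and 3199 CPM in PERK-cKO allogeneic libraries, a log2 fold change of 1.06 ± 0.09 SE (edgeR adjusted p = 1.86e-09). Every PERK-cKO library was above every WT library, as was so in 23.4% of all 4091 genes tested. The other inhibitor, Cdkn1b, has counts only in a row it shares with another gene.

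Scaling libraries to the summed counts of the 9 T cell markers, in place of TMM, moved the median of all genes to 0.12 and the called genes from 759 higher and 593 lower to 947 and 314, and left 9 of 12 S phase and 6 of 7 G2/M genes lower, with medians of -0.56 and -0.60. The scale leans on few genes: Thy1 gave 78452 of the marker counts, Lck 25549 and the next, Lat, 10397. The main row of Thy1 lies inside its exons over 871 of 3350 bp, and that of Lck over 204 of 6729 bp. Thy1 differed little between genotypes after allogeneic stimulation (0.05 ± 0.09 SE) but was higher after allogeneic than polyclonal stimulation in WT (0.86 ± 0.07 SE). Under this scaling Gins1 (edgeR adjusted p = 0.162) and Prim1 (edgeR adjusted p = 0.0986) were not called. Gins1 was also not called with 10 counts asked for in every library (edgeR adjusted p = 0.0523), or without PERK-cKO allogeneic replicate 3 (0.141), WT allogeneic replicate 1 (0.0667) or WT allogeneic replicate 3 (0.0785), and Prim1 was not called without WT allogeneic replicate 2 (0.0672) or 3 (0.101). E2f1 was called lower without WT allogeneic replicate 3 (log2 fold change -1.20, edgeR adjusted p = 0.0464). With any 1 library left out, 10 or 11 S phase genes and 6 G2/M genes were called, beside 1142 to 1288 of all 4175 to 4314 genes tested.

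After polyclonal stimulation the S phase genes lay on the other side: 7 of 12 rose in PERK-cKO and 0 fell, beside 16% of all 3935 genes tested in each direction, with a median log2 fold change of 0.38 against 0.00 over all genes, though with T cell marker scaling the rise was called in 3 and the median was 0.05. Of the G2/M genes 1 of 7 rose and 0 fell, with a median of 0.23, which turned to -0.10 with T cell marker scaling, where Nusap1 alone was called and was lower (-0.44, edgeR adjusted p = 0.0275). That scaling moved the median of all genes to -0.32 and the called genes from 630 higher and 628 lower to 173 higher and 1490 lower. Cdkn1a fell.

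**Figure D2:**
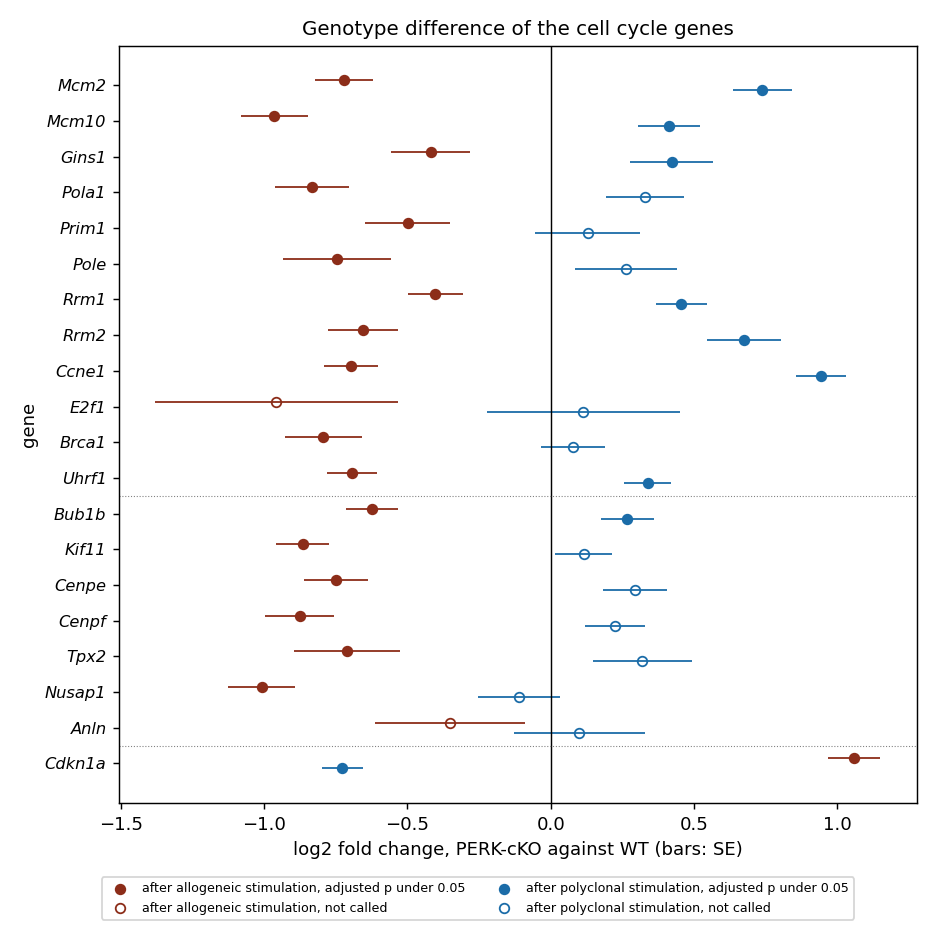
Log2 fold change of PERK-cKO against WT (x axis) for each gene (y axis), after allogeneic (red) and polyclonal (blue) stimulation, with bars of 1 SE and filled points where the adjusted p was under 0.05. All S phase and G2/M points lie left of 0 after allogeneic stimulation, all but Nusap1 lie right of 0 after polyclonal stimulation under TMM scaling (with T cell marker scaling 10 of them turn negative), and Cdkn1a lies opposite in each.

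Ccne1 was at 222, 212 and 219 CPM in WT polyclonal and at 439, 390.5 and 438 CPM in PERK-cKO polyclonal libraries (log2 fold change 0.94 ± 0.09 SE, edgeR adjusted p = 1.07e-06). Mcm2 was at 137, 152 and 129.7 CPM in WT and at 225, 223 and 258 CPM in PERK-cKO (0.74 ± 0.10 SE, edgeR adjusted p = 5.63e-05). Rrm2 was at 76.8, 64.7 and 60.1 CPM in WT and at 102, 119.7 and 104 CPM in PERK-cKO (0.68 ± 0.13 SE, edgeR adjusted p = 0.000886). In these 3 genes, which kept the call with T cell marker scaling, no WT library reached a PERK-cKO library, as was so in 23.0% of all 3935 genes tested. Rrm1 was at 238, 234 and 256 CPM in WT and at 353, 345 and 311 CPM in PERK-cKO (0.46 ± 0.09 SE, edgeR adjusted p = 0.00104). Gins1 was at 93.9, 92.4 and 121 CPM in WT and at 168, 131 and 115 CPM in PERK-cKO (0.42 ± 0.14 SE, edgeR adjusted p = 0.0345), so its groups overlapped. The further calls were Mcm10 (0.41) and Uhrf1 (0.34), and these 4 were not called with T cell marker scaling.

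The other 5 S phase genes were not called, with log2 fold changes of 0.33 for Pola1, 0.26 for Pole, 0.13 for Prim1, 0.11 for E2f1 and 0.08 for Brca1. Bub1b was the 1 G2/M gene called, at 362, 366 and 306 CPM in WT and 425, 397 and 437 CPM in PERK-cKO (0.27 ± 0.09 SE, edgeR adjusted p = 0.036). It was not called by DESeq2 (adjusted p = 0.0708) or with the replicate block (edgeR adjusted p = 0.0506). Nusap1, which had the largest fall after allogeneic stimulation, was at 154, 147 and 225 CPM in WT and 185, 157 and 149 CPM in PERK-cKO polyclonal libraries, with a log2 fold change of -0.11 ± 0.14 SE (edgeR adjusted p = 0.603). Kif11 was at 337, 413 and 423 CPM against 451, 390.5 and 442 CPM (0.12 ± 0.10 SE, edgeR adjusted p = 0.415), and Cenpf at 128, 126 and 110.2 CPM against 154, 135 and 140.0 CPM (0.23 ± 0.10 SE, edgeR adjusted p = 0.117). The first 2 of these mitotic genes overlapped between the genotypes, and Cenpf did not.

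Cdkn1a was at 2658, 2584 and 2431 CPM in WT polyclonal and at 1546, 1586 and 1552 CPM in PERK-cKO polyclonal libraries (log2 fold change -0.73 ± 0.07 SE, edgeR adjusted p = 1.83e-06), lower in every PERK-cKO library, as were 20.5% of all 3935 genes tested. Without WT polyclonal replicate 1, the library rich in Gm42418, Ccne1, Mcm2, Rrm2, Rrm1, Mcm10, Uhrf1 and Cdkn1a were still called, and Gins1 (edgeR adjusted p = 0.166) and Bub1b (0.0753) were not. Gins1 was also not called by DESeq2 (adjusted p = 0.0632) or without PERK-cKO polyclonal replicate 1 (0.25) or 2 (0.0533) or WT polyclonal replicate 2 (0.109), and Bub1b not without PERK-cKO polyclonal replicate 1 (0.0977) or 3 (0.121) or WT polyclonal replicate 3 (0.146). Calls gained were Pola1 without PERK-cKO polyclonal replicate 2 (0.0408), Cenpe without WT polyclonal replicate 2 (0.0257), and Prim1 (0.00956) and Tpx2 (0.044) without WT polyclonal replicate 3. Between 6 and 8 S phase and 0 to 2 G2/M genes were called when 1 library was left out, beside 984 to 1172 of all 4050 to 4086 genes tested.

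**Figure D3:**
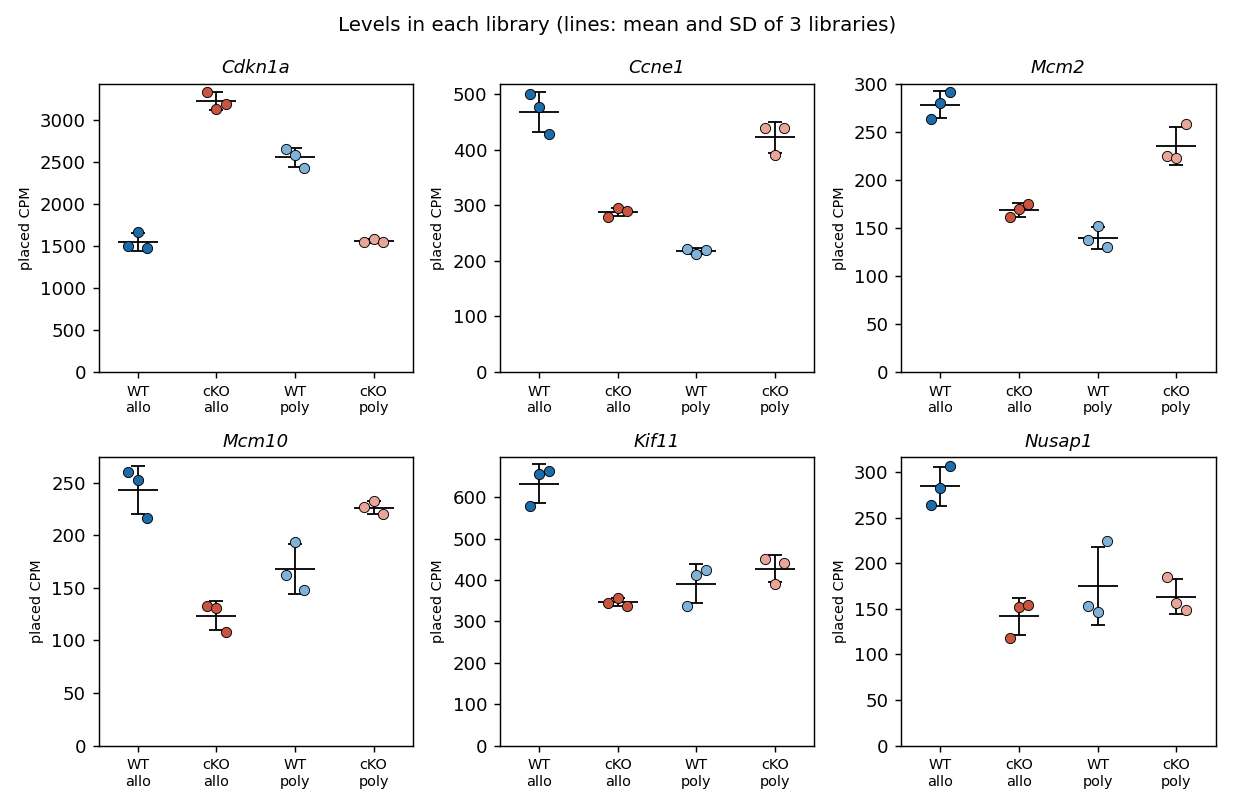
Placed CPM after TMM scaling (y axis, from 0) of 6 genes in each library of the 4 groups, with the mean and SD of 3 libraries. Ccne1 and Mcm2 are high in WT allogeneic and PERK-cKO polyclonal libraries and low in the other groups, Mcm10 is lowest in PERK-cKO allogeneic libraries, Kif11 and Nusap1 are highest in WT allogeneic libraries, and Cdkn1a is highest in PERK-cKO allogeneic libraries.

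Whether the genotype difference itself depended on the stimulation was asked with an interaction term over all 12 libraries, as the log2 fold change after allogeneic minus that after polyclonal stimulation. It was negative and called in 10 of 12 S phase genes and 6 of 7 G2/M genes, and positive and called in none of them, beside 17.2% of 4400 genes tested called negative and 16.7% called positive. The medians were -1.07 for S phase and -0.999 for G2/M genes, against 0.01 for all genes. With T cell marker scaling the median of all genes moved to 0.50, the calls from 736 positive and 759 negative to 1607 and 191, and 7 S phase and 4 G2/M genes were called, all negative, with medians of -0.58 and -0.51. The largest negative terms were Ccne1 (-1.66 ± 0.12 SE, edgeR adjusted p = 9.57e-10), Mcm2 (-1.48 ± 0.14 SE, edgeR adjusted p = 2.87e-08) and Mcm10 (-1.40 ± 0.16 SE, edgeR adjusted p = 5.68e-07). These act at cyclin E and at the replicative helicase. They were followed by Rrm2 (-1.35 ± 0.18 SE, edgeR adjusted p = 2.8e-06) and Pola1 (-1.18 ± 0.19 SE, edgeR adjusted p = 3.18e-05). The G2/M terms ran from -0.47 in Anln, not called, to -1.12 in Cenpf. Cdkn1a had a term of 1.77 ± 0.11 SE (edgeR adjusted p = 1.49e-11). Prim1 (-0.65, edgeR adjusted p = 0.0601) and E2f1 (-1.09, edgeR adjusted p = 0.14) were not called, and Prim1 was called without WT polyclonal replicate 3 (0.000714) or WT allogeneic replicate 1 (0.0208).

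The S phase and G2/M genes were also set side by side within each library. Per library, the median of log2(CPM + 1) minus the gene's 12-library mean was 0.40 to 0.44 for the S phase genes and 0.37 to 0.48 for the G2/M genes in WT allogeneic libraries, and -0.30 to -0.22 and -0.37 to -0.29 in PERK-cKO allogeneic libraries. In WT polyclonal libraries the S phase median (-0.32 to -0.27) lay under the G2/M median (-0.23 to -0.04) in each of the 3 libraries. In PERK-cKO polyclonal libraries the S phase median (0.11 to 0.27) lay above the G2/M median (0.02 to 0.10) in each of the 3. The S phase median minus the G2/M median, a difference within a library that no scaling factor enters except through the offset of 1, was -0.22 to -0.09 in WT polyclonal, 0.08 to 0.17 in PERK-cKO polyclonal, 0.06 to 0.07 in PERK-cKO allogeneic and -0.08 to 0.07 in WT allogeneic libraries. It is given as a description of these 19 genes, with no test. The longer lists given further on had the other order after polyclonal stimulation, with genotype medians of 0.23 over 18 other S phase genes and 0.31 over 25 other G2/M genes.

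**Figure D4:**
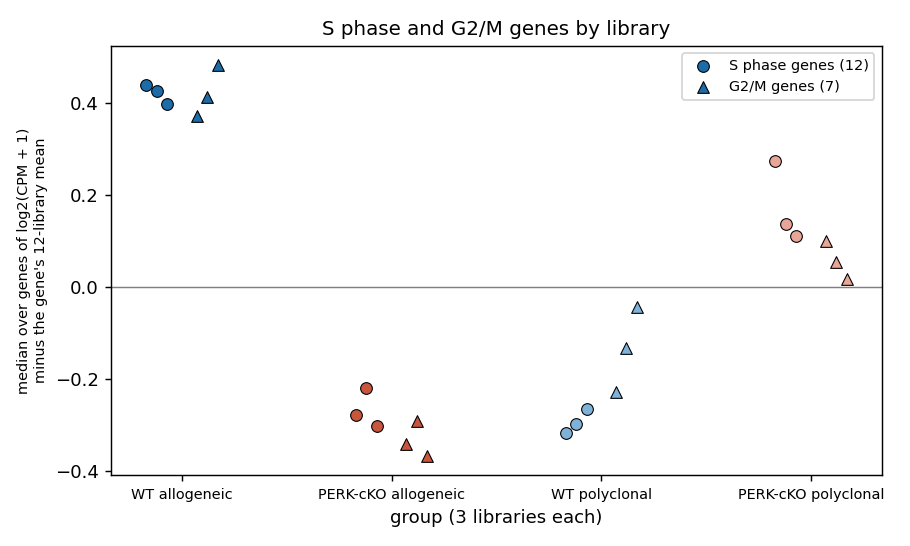
Each point is 1 library: the median over 12 S phase genes (circles) or 7 G2/M genes (triangles) of log2(CPM + 1) minus the gene's 12-library mean (y axis), by group (x axis), under TMM scaling. WT allogeneic libraries are highest, between 0.37 and 0.48, PERK-cKO allogeneic libraries lie between -0.37 and -0.22, and the circles and triangles separate in opposite order in the 2 polyclonal groups.

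The stimulations were also compared within each genotype. They differ in the presence of APCs as well as in the stimulus, and, by the deposited design text but not by the article's RNA-Seq legend, in the day of harvest, and these cannot be told apart. Both comparisons share libraries with the genotype comparisons above. In WT T cells, 8 of 12 S phase genes and 6 of 7 G2/M genes were higher after allogeneic than after polyclonal stimulation and 0 were lower, beside 24.6% of 3983 genes called higher and 24.2% lower, with medians of 0.58 and 0.56 against -0.01 over all genes. With T cell marker scaling, under which the median of all genes was -0.51 and the calls went from 980 higher and 962 lower to 351 and 2189, the medians were 0.08 and 0.06, and 4 S phase and 2 G2/M genes were called, of which Brca1 (-0.31) and Bub1b (-0.25) were lower. Rrm2 was at 213, 171 and 169 CPM after allogeneic stimulation, above the polyclonal values given earlier (log2 fold change 1.43 ± 0.13 SE, edgeR adjusted p = 1.02e-06). Ccne1 was at 499.7, 476 and 429 CPM (1.07 ± 0.09 SE, edgeR adjusted p = 3.83e-07) and Mcm2 at 264, 279.9 and 291 CPM (0.96 ± 0.10 SE, edgeR adjusted p = 2.63e-06). For all 3, no polyclonal library reached an allogeneic one, as was so in 29.6% of all 3983 genes tested. Cenpe was at 289, 269.7 and 267 CPM after allogeneic and at 163, 174 and 130.2 CPM after polyclonal stimulation (0.79 ± 0.11 SE, edgeR adjusted p = 4.68e-05). Gins1 was at 180.1, 147 and 175 CPM (0.68 ± 0.13 SE, edgeR adjusted p = 0.00073), and Cdkn1a fell (-0.75 ± 0.08 SE, edgeR adjusted p = 3.61e-06).

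Not called in this comparison were Pole (0.43), Prim1 (0.32), E2f1 (0.28), Brca1 (0.19) and Anln (0.12). Bub1b was not called by DESeq2 (adjusted p = 0.0536), with library size only (edgeR adjusted p = 0.126), or without WT polyclonal replicate 3 (0.14) or WT allogeneic replicate 1 (0.0587), 2 (0.062) or 3 (0.0525), and Tpx2 not without WT polyclonal replicate 2 (0.0588). Prim1 was called without WT polyclonal replicate 3 (0.00374) and Pole without WT allogeneic replicate 2 (0.0249).

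In PERK-cKO T cells the order was the opposite: 9 of 12 S phase and 3 of 7 G2/M genes were lower after allogeneic stimulation and 0 were higher, beside 23.8% of 4157 genes called lower and 27.6% higher. The medians were -0.49 and -0.32 against 0.00 over all genes, and with T cell marker scaling they were -0.53 and -0.36, with 9 and 4 called, beside 1082 genes called higher and 1040 lower of all genes and a median of -0.03 (1149 and 988 under TMM scaling). Mcm10 had the largest fall (log2 fold change -0.87 ± 0.11 SE, edgeR adjusted p = 2.93e-06), from 227, 232 and 219.7 CPM after polyclonal to 133, 131 and 108 CPM after allogeneic stimulation. Brca1 was at 93.2, 69.4 and 83.5 CPM after allogeneic and at 150.0, 119 and 122 CPM after polyclonal stimulation (-0.67 ± 0.14 SE, edgeR adjusted p = 0.000522). Bub1b was at 286, 265 and 265 CPM after allogeneic stimulation (-0.63 ± 0.09 SE, edgeR adjusted p = 1.04e-05). Neither gene overlapped between the stimulations, as was so in this direction in 27.8% of all 4157 genes tested. Cenpf fell by 0.60 (SE 0.12, edgeR adjusted p = 0.000316), and Pole was at 36.6, 33.7 and 34.6 CPM after allogeneic and 46.0, 54.4 and 55.7 CPM after polyclonal stimulation (-0.57 ± 0.17 SE, edgeR adjusted p = 0.00911). Rrm2, which had the largest rise in WT, was at 113, 124 and 113 CPM after allogeneic stimulation and did not pass the test (0.10 ± 0.12 SE, edgeR adjusted p = 0.485). Cdkn1a rose by 1.04 (SE 0.08, edgeR adjusted p = 2.15e-09).

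Calls in PERK-cKO that rested on single libraries were Pola1, not called without PERK-cKO polyclonal replicate 1 (edgeR adjusted p = 0.0655), Rrm1, not called without PERK-cKO allogeneic replicate 2 (0.051) or 3 (0.0641), and Prim1, not called without PERK-cKO polyclonal replicate 1 (0.0868) or 3 (0.146) or PERK-cKO allogeneic replicate 1 (0.12) or 3 (0.165). Prim1 (edgeR adjusted p = 0.0472) kept its call in 2 of 9 other settings, and lost it under DESeq2 (0.119), RLE factors (0.0609), whole-table totals (0.0708), no filter (0.0605), 10 counts in every library (0.111), all 12 libraries in one fit (0.19) and the replicate block (0.0692). Cenpe was called without PERK-cKO allogeneic replicate 2 (0.0359) and Tpx2 without PERK-cKO allogeneic replicate 3 (0.0202).

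Over the 4 groups, under TMM scaling, the mean level was highest in WT allogeneic libraries for all 19 S phase and G2/M genes that could be read, whereas with T cell marker scaling 7 of them (Prim1, Pole, E2f1, Brca1, Bub1b, Cenpf and Anln) had negative log2 fold changes between WT allogeneic and WT polyclonal libraries. Under TMM scaling it was lowest in PERK-cKO allogeneic libraries for 13 of the 19 (7 S phase and 6 G2/M) and in WT polyclonal libraries for the other 6 (Mcm2, Gins1, Rrm1, Rrm2, Ccne1 and Cenpe). As an example of the second kind, Ccne1 had means of 468 ± 36.1, 288 ± 7.89, 218 ± 4.98 and 423 ± 27.7 CPM (SD, n = 3) in WT allogeneic, PERK-cKO allogeneic, WT polyclonal and PERK-cKO polyclonal libraries. The first and last did not separate (429 to 499.7 against 390.5 to 439 CPM), while PERK-cKO allogeneic and WT polyclonal libraries did. Of the first kind, Nusap1 had means of 284 ± 21.6, 142 ± 20.1, 175 ± 43.0 and 163 ± 18.9 CPM (SD, n = 3), where WT allogeneic stood alone and the other groups overlapped. Cdkn1a had means of 1551 ± 105, 3224 ± 107, 2558 ± 116 and 1561 ± 21.5 CPM (SD, n = 3). Its WT allogeneic and PERK-cKO polyclonal libraries overlapped, WT polyclonal libraries lay above both, and PERK-cKO allogeneic libraries lay above all others.

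Further cell cycle genes, from lists made by function with earlier results of these data known, were read in the same way. Of 54 other S phase genes 18 and of 70 other G2/M genes 28 had 10 or more placed counts, and 18 and 25 were tested in each comparison. After allogeneic stimulation 12 of 18 other S phase genes and 23 of 25 other G2/M genes fell in PERK-cKO and 0 rose, beside 14.5% of all genes tested that fell and 18.6% that rose, with medians of -0.53 and -0.83. The largest falls were those of the repair gene Brca2 (-1.09 ± 0.30 SE, edgeR adjusted p = 0.00679) and of the checkpoint kinase Ttk (-1.39 ± 0.25 SE, edgeR adjusted p = 0.000119), whose row lies inside its exons over 64 of 1805 bp. After polyclonal stimulation, under TMM scaling and beside 16% of all genes in each direction, 7 of 18 rose and 0 fell, led by the E2F repressor E2f7 (0.94 ± 0.14 SE, edgeR adjusted p = 8.37e-05), and of 25 G2/M genes 10 rose, led by the chromokinesin Kif22 (0.64 ± 0.13 SE, edgeR adjusted p = 0.00133), and Ttk alone fell (-0.81 ± 0.25 SE, edgeR adjusted p = 0.0198). The medians were 0.23 and 0.31. With T cell marker scaling 9 and 22 genes were still lower after allogeneic stimulation (medians -0.38 and -0.68), whereas after polyclonal stimulation the medians were -0.09 and -0.02, with 3 higher and 1 lower among the S phase genes and 0 higher and 1 lower among the G2/M genes, where 173 genes were called higher and 1490 lower of all 3935, with a median of -0.32. The interaction was negative and called in 12 of 18 and 24 of 25 genes, beside 17.2% of all genes, with the largest terms in the histone chaperone subunit Chaf1b (-1.74 ± 0.24 SE, edgeR adjusted p = 5.73e-06) and the centromere protein gene Cenpi (-2.07 ± 0.53 SE, edgeR adjusted p = 0.00363). With T cell marker scaling it was called in 6 and 16, all negative, where 191 of all 4400 genes were called negative.

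**Figure D5:**
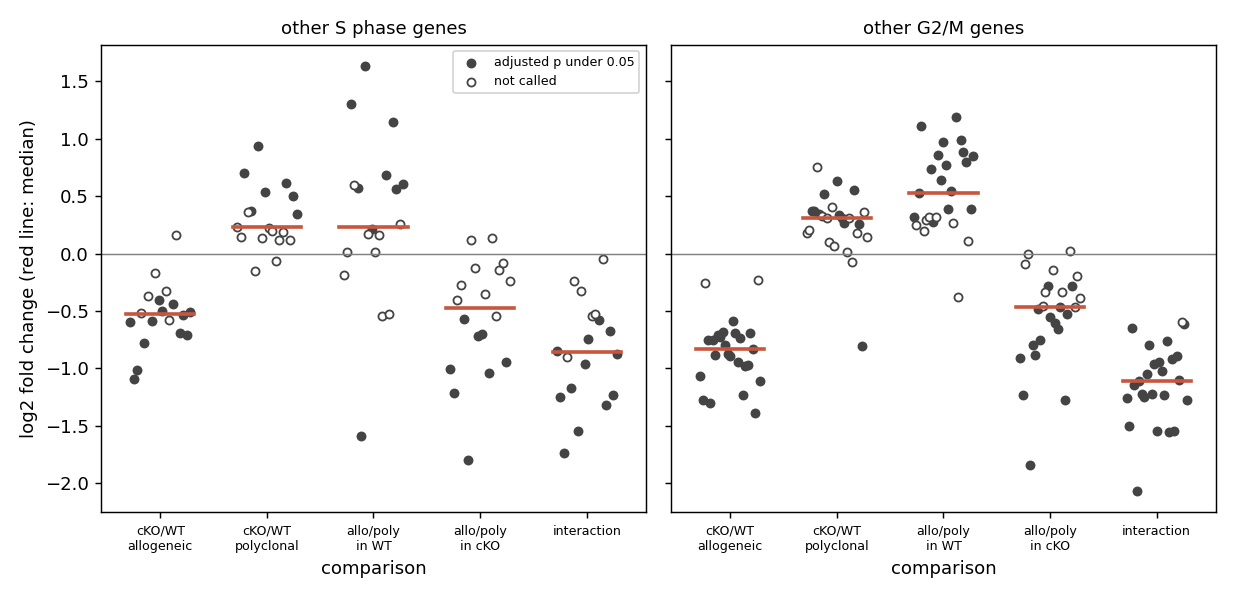
Log2 fold change (y axis) of 18 other S phase genes (left) and 25 other G2/M genes (right) in the 5 comparisons (x axis), under TMM scaling (with T cell marker scaling the polyclonal medians are -0.09 and -0.02 and the left panel's WT median is -0.26), with filled points where the adjusted p was under 0.05 and a red line at the median. The medians are -0.53 and -0.83 in the allogeneic genotype comparison, 0.23 and 0.31 in the polyclonal one, and -0.86 and -1.11 for the interaction.

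Between the stimulations in WT T cells, 8 of 18 other S phase genes rose after allogeneic stimulation, beside 24.6% of all genes that rose and 24.2% that fell, led by E2f7 (1.64 ± 0.11 SE, edgeR adjusted p = 8.95e-08), and Dtl, which marks the licensing factor CDT1 for degradation, fell (-1.59 ± 0.21 SE, edgeR adjusted p = 3.11e-05, with 809 of its counts from a row listed as Nek2 that lies inside Dtl exons over 51 of 4516 bp, and 137 from another), while 17 of 25 G2/M genes rose, led by the kinetochore gene Nuf2 (1.19 ± 0.13 SE, edgeR adjusted p = 5.22e-06). With T cell marker scaling the WT counts became 3 higher and 7 lower for the S phase genes (median -0.26) and 8 higher and 1 lower for the G2/M genes (median 0.03), where 351 genes were called higher and 2189 lower of all 3983, with a median of -0.51. In PERK-cKO T cells 8 of 18 and 15 of 25 fell and 0 rose, beside 23.8% and 27.6% of all genes, with the largest falls in Dtl (-1.80 ± 0.19 SE, edgeR adjusted p = 2.89e-07) and Cenpi (-1.85 ± 0.35 SE, edgeR adjusted p = 0.000202). Dtl fell in both genotypes, with a genotype by stimulation term of -0.24 ± 0.29 SE (edgeR adjusted p = 0.563). Of the 16 G1 cyclins, CDKs and other inhibitors, 2 had 10 or more counts and 1 was tested, Cdk6, the partner of D-type cyclins. Its values followed the direction of Cdkn1a: 0.55 ± 0.11 SE after allogeneic stimulation (edgeR adjusted p = 0.000208), -0.38 ± 0.09 SE after polyclonal stimulation (edgeR adjusted p = 0.00468) and an interaction of 0.91 ± 0.14 SE (edgeR adjusted p = 2.56e-05).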

How the data were processed

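Bulk RNA-Seq of 12 libraries (3 in each of 4 groups, grouped by the labels) was deposited as 1 table of raw counts per gene name. The deposited counts were made by the authors with featureCounts 2.0.1 on paired reads over exons, without strand, with a GENCODE M27 annotation, per the file headers; the labels name mm10, and the aligner is not given in the sources used here. Because the printed exon positions are those of another assembly than mm10, each of 53762 rows was laid by position on GRCm38 GENCODE M21 exons. Rows over exons of exactly 1 gene (small RNAs aside) by 50 bp or more were summed by gene: 13384 rows with 49.8% of counts, for 10701 genes, whereas 34321 rows lay over no exon. The other positions of a placed row lie outside that gene's exons, and reads there are included in its count. Each library held 3132702 to 4631908 counts, and the tests estimate their precision from the replicates. No per-sample column was left unmatched.

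Each pair of groups was fitted in its 6 libraries, and the interaction in all 12, with edgeR 4.0.16 in R 4.3.3 (filterByExpr, TMM, quasi-likelihood test, Benjamini-Hochberg over all genes tested, adjusted p under 0.05). SE is the log2 fold change over the root of the F statistic. The fit was tested on simulated data. Alternatives were DESeq2 1.42.0, other scaling (RLE factors, library size alone, whole-table totals, T cell markers), no filter, 10 counts in every library, the replicate block, all 12 libraries in one fit, stricter placement and leaving out each library. Members and lists were chosen with earlier results of these data known. Values are given for each member with 10 or more placed counts, and full statistics for the called members with up to 5 largest changes each way in a comparison. Of the other cell cycle lists, the called gene with the largest change each way was named. No source says that replicate numbers pair the libraries, and correlations of same-numbered deviations ran from -0.0988 to 0.0986.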

Additional observations from a re-analysis of the deposited data

Results flagged for a closer look

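The genotype difference itself differed between the stimulations, by the interaction term of the edgeR fit over all 12 libraries, in 17 of the 20 genes that could be read. Of all 4400 genes tested, 17.2% were called with a negative term and 16.7% with a positive term. Each value is the log2 fold change of PERK-cKO against WT after allogeneic stimulation minus that after polyclonal stimulation, under TMM scaling. Among S phase genes it was -1.66 for Ccne1, -1.48 for Mcm2, -1.40 for Mcm10, -1.35 for Rrm2 and -1.18 for Pola1. It was -1.05 for Uhrf1, -1.03 for Pole, -0.89 for Brca1, -0.88 for Rrm1 and -0.86 for Gins1. Among G2/M genes it was -1.12 for Cenpf, -1.06 for Cenpe, -1.05 for Tpx2 and -0.999 for Kif11. It was -0.91 for Nusap1 and -0.91 for Bub1b. It was 1.77 for Cdkn1a, the 1 value with a positive sign. With T cell marker scaling the terms of Gins1 (-0.36, edgeR adjusted p = 0.184), Pole (-0.54, 0.106), Brca1 (-0.40, 0.061), Tpx2 (-0.56, 0.104) and Nusap1 (-0.41, 0.124) were not called, and all 5 kept their sign. The stimulus and the antigen-presenting cells, and the day of harvest where it differed, cannot be told apart in this design. The counts of Y-linked genes, above 0 in WT allogeneic libraries and 0 in PERK-cKO allogeneic and all polyclonal libraries, mark 1 group, and their part in the interaction was not tested.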

How the results depend on the processing

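Scaling to T cell markers gave, after allogeneic stimulation, medians of -0.56 (S phase) and -0.60 (G2/M). The calls over all genes under this scaling are given with each comparison above. After polyclonal stimulation it called 3 S phase genes, with medians of 0.052 and -0.10, and turned Prim1 (-0.20), Pole (-0.059), E2f1 (-0.21), Brca1 (-0.25), Bub1b (-0.056), Kif11 (-0.21), Cenpe (-0.031), Cenpf (-0.10), Tpx2 (-0.0061) and Anln (-0.23). Between stimulations in WT it called 4 S phase and 2 G2/M genes, with medians of 0.081 and 0.064, and turned Prim1 (-0.19), Pole (-0.067), E2f1 (-0.22), Brca1 (-0.31), Bub1b (-0.25), Cenpf (-0.0096) and Anln (-0.38). The interaction medians were -0.58 and -0.51, and Anln was at 0.019. The cause was not tested. Asking for 10 counts in every library, which leaves out E2f1, gave S phase medians of -0.64 (allogeneic), -0.43 (stimulations in PERK-cKO) and -0.90 (interaction) and a G2/M interaction median of -0.85. The S phase interaction median was -1.02 with RLE factors and -1.01 with whole-table totals. The count of G2/M genes called after polyclonal stimulation was 0 with DESeq2 and 2 with no filter or all 12 libraries in one fit, and in PERK-cKO between stimulations it was 5 with library size only. Over all genes these fits called, in this order, 1046 of 3935, 1422 of 6796, 1285 of 4400 and 2141 of 4157 genes tested. Rows at least 50% inside the exons, which keep no member, gave 402, 353, 567, 618 and 403 genes called of all genes, and rows under the same symbol 263, 244, 373, 410 and 277 (allogeneic, polyclonal, WT, PERK-cKO, interaction), where 1352, 1258, 1942, 2137 and 1495 were called, since fewer genes were tested. Kif11 in its own rows was at -0.0034 after polyclonal stimulation.

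Leaving out 1 library gave a G2/M median of -0.85 to -0.73 after allogeneic stimulation, and after polyclonal stimulation 0 to 2 G2/M genes called, a G2/M median of 0.15 to 0.26 and an S phase median of 0.32 to 0.42. In these polyclonal fits 984 to 1172 of all 4050 to 4086 genes tested were called. Signs that turned after polyclonal stimulation were in the ranges of Prim1 (-0.075 to 0.47), E2f1 (-0.059 to 0.31), Brca1 (-0.056 to 0.14), Kif11 (-0.0088 to 0.18), Nusap1 (-0.23 to 0.11) and Anln (-0.025 to 0.22). Between stimulations these were E2f1 (-0.17 to 0.53) and Anln (-0.054 to 0.32) in WT and Gins1 (-0.29 to 0.019) in PERK-cKO, where the G2/M medians ran from 0.51 to 0.67 in WT and from -0.45 to -0.28 in PERK-cKO. Interaction medians ran from -1.20 to -0.98 (S phase) and from -1.06 to -0.92 (G2/M). Of 720 single-gene values with 1 library left out 672 kept direction and call, and of 887 under other settings 819 did. Cdkn1a kept its direction and call in the 9 other settings that hold it (8 for the interaction) and with each library left out, and neither stricter placement holds it. With the replicate block 1386, 1240, 2022, 2104 and 1474 genes were called. Bub1b after polyclonal stimulation (edgeR adjusted p = 0.0506) and Prim1 in PERK-cKO (0.0692) lost their calls, and Cenpe after polyclonal stimulation (0.0423), Prim1 in WT (0.0398) and the Prim1 interaction (0.0401) gained them. Replicate numbers are not known to pair the libraries. E2f1 had the fewest counts of the 20 genes, 208 in all, and whether depth or the spread between libraries set its wide errors was not tested. Of the 58 genes 38 could not be read.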
